A study of Mus musculus with 8 samples.

Results

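Mrc1, Cd163, Lyve1, Pf4, Cbr2, Folr2, F13a1 and Stab1, which mark macrophages of the brain's borders, and Retnla and Arg1, which mark alternative activation of macrophages, were followed in the hypothalamus of peroxisome-deficient mice. These 10 genes were chosen by symbol from the 18194 genes measured, to look at perivascular and meningeal macrophages apart from microglia. They are read by 11 probe sets annotated to 1 gene each, and a gene with several probe sets was represented by the brightest over the 8 arrays. The groups were 4 wild type mice (replicates 1 to 4) and 4 Nestin-Pex5-/- mice (replicates 7 to 10), all 10 weeks of age and untreated, with 1 Affymetrix Mouse Genome 430 2.0 array for each mouse. In Nestin-Pex5-/- mice, bred into a Swiss Webster background, Cre under the Nestin promoter removes loxP-flanked Pex5, the import receptor for peroxisomal matrix proteins, from the cells that descend from neural progenitors. Sex, litter and the presence of Cre in the control mice are not given in the sources used here. All values are log2 values made by the authors with RMA (background correction, quantile normalization and summary over the probes of a probe set).

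Border-associated macrophages lie along blood vessels within the perivascular space, in the meninges and in the choroid plexus, outside the parenchyma where microglia live. Like microglia they do not descend from neural progenitors, depend on the receptor Csf1r and share complement, Fc receptor and lysosomal genes with them. Scavenger and lectin receptors such as Mrc1 (CD206), Cd163, Lyve1 and Stab1 are in the healthy brain largely restricted to border macrophages. Alternative activation is the state that IL-4 and IL-13 induce through the transcription factor Stat6, and Retnla (Fizz1), Arg1 and Mrc1 are its classical mouse markers.

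None of the 10 genes differed between the genotypes in the limma fit over all genes, at a Benjamini-Hochberg adjusted p under 0.05. Of all genes, 3.98% (724) were higher and 0.791% (144) were lower in Nestin-Pex5-/- hypothalamus, a split that became 540 higher and 1088 lower with the arrays scaled to Actb, where again none of the 10 was called. None of the 10 had an unadjusted p under 0.05, and for none were the arrays of the genotypes apart without overlap, which was the case for 11.1% of all genes. The median log2 difference, Nestin-Pex5-/- minus wild type, was 0.13 over the 10 genes and 0.11 over the 8 border macrophage genes, against -0.033 over all genes. In the same arrays all 18 of 18 pan-macrophage genes were higher, with a median difference of 2.48, and 8 of 10 microglia-enriched genes were higher, with a median of 0.96. Several of the 10 genes were unequal among the Nestin-Pex5-/- mice themselves, whereas Lyve1, Folr2 and Stab1 spread less among them than among wild type mice. For Lyve1 this holds for its brighter probe set only. Its dimmer probe set read 4.33 to 5.05 in Nestin-Pex5-/- and 4.57 to 4.74 in wild type arrays. Replicate 9 had the highest of all 8 values in 7 of the 10 genes, whereas it was the highest array for 6.47% of all genes.

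The array medians lay between 6.70 and 6.84, and the first principal component (49.3% of the variance) separated the genotypes. On the second (18.7%), wild type replicate 4 stood apart. Choroid plexus and ependyma genes (9 measured) averaged 6.66 in that array, while wild type replicates 1 to 3 ranged from 8.10 to 8.47 and the Nestin-Pex5-/- arrays from 7.56 to 8.12. On the third (12.8%), Nestin-Pex5-/- replicates 7 and 8 lay at 14.5 and 10.6, and replicates 9 and 10 at -12.1 and -12.0. Genes of the hypothalamus (14 measured, neuropeptides such as Pmch and Avp among them) averaged 8.95, 8.96, 8.64 and 8.998 in wild type replicates 1 to 4 and 8.98, 8.70, 8.52 and 8.57 in Nestin-Pex5-/- replicates 7 to 10, and none of them passed the test. Nestin-Pex5-/- replicates 9 and 10 were below every wild type array in this mean, and its part in the results below was not tested. Pex5 did not differ with either of its probe sets (log2 difference 0.011, SE 0.056, limma adjusted p = 0.946 for the brighter), and since the sources used here do not say whether the probes lie in the deleted sequence, this checks no label. The count of 0 genes called among the 10 was the same with each array left out in turn.

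The promoters are shown for the 3 genes whose values spread most among the Nestin-Pex5-/- arrays, so that the letters bound by factors of the macrophage lineage and of alternative activation can be seen. The windows run from 250 bases before to 50 bases after the annotated start, on the strand of the gene, in the RefSeq annotation of GRCm38.p6. They lie at chr16:48842359-48842658 for Retnla (plus strand), at chr2:14229164-14229463 for Mrc1 (plus strand) and at chr13:37050195-37050494 for F13a1 (minus strand, the outer of its pair of windows). Capitals mark GAGGAA, the core of sites for the macrophage factor PU.1, the palindrome TTCNNNNGAA that STAT factors bind, and TGCTGA, a core of MAF sites, each read on both strands.
Retnla: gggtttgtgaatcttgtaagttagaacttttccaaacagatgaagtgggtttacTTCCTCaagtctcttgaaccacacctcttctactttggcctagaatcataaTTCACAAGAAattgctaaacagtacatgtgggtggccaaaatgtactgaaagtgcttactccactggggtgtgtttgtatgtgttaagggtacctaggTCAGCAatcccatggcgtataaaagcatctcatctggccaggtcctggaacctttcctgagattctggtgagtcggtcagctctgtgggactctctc
Mrc1: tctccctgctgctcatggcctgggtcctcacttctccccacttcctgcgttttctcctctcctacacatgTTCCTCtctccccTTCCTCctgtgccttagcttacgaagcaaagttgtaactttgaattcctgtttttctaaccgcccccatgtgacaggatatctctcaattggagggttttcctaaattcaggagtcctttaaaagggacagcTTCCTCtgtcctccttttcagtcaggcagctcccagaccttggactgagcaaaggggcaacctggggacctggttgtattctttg
F13a1: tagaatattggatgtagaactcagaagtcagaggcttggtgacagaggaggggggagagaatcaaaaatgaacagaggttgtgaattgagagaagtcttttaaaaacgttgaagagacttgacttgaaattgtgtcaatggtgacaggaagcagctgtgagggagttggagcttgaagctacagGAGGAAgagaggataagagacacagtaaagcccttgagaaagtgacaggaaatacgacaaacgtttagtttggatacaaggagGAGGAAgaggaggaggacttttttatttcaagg
The Retnla window held 1 match of each kind, with first bases at -196 (PU.1), -145 (STAT) and -47 (MAF), the start base being 1, with no base 0. The Mrc1 window held 3 PU.1 matches at -180, -167 and -35, and the F13a1 window held PU.1 matches at -66 and 18. Of the 10 genes, 8 have windows, 10 windows together. GAGGAA was found in 6 of these genes (Cbr2, F13a1, Mrc1, Pf4, Retnla and Stab1). By window, it was in 7 of 10, against 28.3% of all 32851 windows. TTCNNNNGAA was found in Cbr2 and Retnla, in 2 of 10 windows, against 6.95% of all windows. TGCTGA was found in Cbr2, Folr2, Retnla and Stab1, in 5 of 10 windows, against 19.5%. These matches describe the letters of the windows and were not set against binding data.

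The endocytic receptors gave small differences. Mrc1 (probe set 1450430_at, gene at chr2:14229414-14332023), the mannose receptor, read 6.22, 6.37, 6.40 and 6.56 in wild type replicates 1 to 4 and 6.10, 6.31, 6.94 and 6.83 in Nestin-Pex5-/- replicates 7 to 10. Replicates 9 and 10 lay above every wild type array, replicate 7 lay below every wild type array, and replicate 8 lay within their range. The means were 6.39 ± 0.14 (SD, n = 4) and 6.54 ± 0.40 (SD, n = 4), a 1.11-fold difference (log2 0.15, SE 0.18, 95% interval -0.24 to 0.55) with a limma adjusted p of 0.702. The exact two-sided permutation test gave p = 0.486, where the smallest p that 4 against 4 arrays allow is 0.029.

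Cd163 (1419144_at, chr6:124304636-124330529), the scavenger receptor for haptoglobin-haemoglobin complexes, read 5.22, 5.24, 5.67 and 5.63 in wild type and 5.33, 5.57, 6.03 and 5.92 in Nestin-Pex5-/- arrays. Again replicates 9 and 10 exceeded all wild type arrays, while replicates 7 and 8 fell within their range. Its difference was the largest among the 8 border macrophage genes, 1.21-fold (log2 0.27, SE 0.17, interval -0.10 to 0.65), and did not pass the test (limma adjusted p = 0.455, exact permutation p = 0.229). Stab1 (1450199_a_at, chr14:31139017-31168651), the scavenger receptor stabilin-1, read 6.60, 6.47, 6.82 and 6.73 in wild type and 6.65, 6.87, 6.91 and 6.74 in Nestin-Pex5-/- arrays. Here replicates 8 and 9, not 10, were above the wild type range, and the spread was narrow in both genotypes (SD 0.15 and 0.12). The difference was 1.10-fold (log2 0.14, SE 0.090, interval -0.067 to 0.34, limma adjusted p = 0.496).

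Folr2 (1451648_a_at, chr7:101839988-101857190), the folate receptor beta, read 5.92, 5.91, 6.35 and 6.33 in wild type and 6.05, 5.89, 6.33 and 6.22 in Nestin-Pex5-/- arrays. The genotypes covered nearly the same range, and both had a pair of lower and a pair of higher arrays. The ratio of the means was 0.997 (log2 -0.0043, SE 0.13), with an interval of -0.30 to 0.29 and a limma adjusted p of 0.992. Probe sets whose names end in _a_at read several transcripts of a gene, and those of Folr2 and Stab1 are the only ones of these genes of that kind.

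Lyve1 (1453128_at, chr7:110850607-110862953), a hyaluronan receptor shared with lymphatic endothelium, read 5.17, 5.37, 5.20 and 5.27 in wild type and 5.22, 5.20, 5.24 and 5.27 in Nestin-Pex5-/- arrays. The Nestin-Pex5-/- values all lay within the wild type range and were among the least spread of all genes (SD 0.030, at percentile 4.75 of the SDs of all genes in that genotype). The ratio was 0.986 (log2 -0.020, SE 0.059, interval -0.15 to 0.11, limma adjusted p = 0.899). Lyve1 has a further, dimmer probe set, 1429379_at, which read 4.57, 4.63, 4.61 and 4.74 in wild type and 4.33, 4.61, 5.05 and 4.91 in Nestin-Pex5-/- arrays. That probe set had the order of Mrc1, with replicates 9 and 10 above and replicate 7 below the wild type range, so the probe sets of Lyve1 disagreed in their pattern, though neither passed the test (1.06-fold and adjusted p = 0.837 in a limma fit over all probe sets for the dimmer). Prox1 and Flt4, which define lymphatic endothelium and were named after their values were seen, had log2 differences of 0.40 and -0.09. Of the 7 lymphatic and sinusoidal genes measured only Pdpn, podoplanin, passed the test (1.25-fold, limma adjusted p = 0.0304).

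The secreted and enzymatic markers came next. F13a1 (1448929_at, chr13:36867178-37050244), the A chain of coagulation factor XIII, read 6.50, 6.44, 6.50 and 6.82 in wild type and 6.19, 6.44, 7.16 and 6.95 in Nestin-Pex5-/- arrays. Replicates 9 and 10 were above all wild type arrays, replicate 7 was below them and replicate 8 was level with the lowest of them. The means of 6.56 ± 0.17 and 6.69 ± 0.45 (SD, n = 4 each) gave 1.09-fold (log2 0.12, SE 0.20, interval -0.32 to 0.56), limma adjusted p = 0.800. The spread among the Nestin-Pex5-/- arrays was at percentile 99.0 of the SDs of all genes, and that in wild type at percentile 72.9.

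Pf4 (1448995_at, chr5:90772435-90773383), platelet factor 4, a chemokine of platelets and border macrophages, read 6.51, 6.42, 6.14 and 6.87 in wild type and 5.99, 6.16, 6.62 and 6.54 in Nestin-Pex5-/- arrays. It was the only one of the 8 border macrophage genes whose mean was lower in Nestin-Pex5-/- by more than 0.1 (ratio 0.898, log2 -0.16, SE 0.18, interval -0.55 to 0.24), and the limma adjusted p was 0.698. Within the Nestin-Pex5-/- arrays the order was the same as for Mrc1 and F13a1, but replicates 9 and 10 stayed below wild type replicate 4. Of 6 platelet and megakaryocyte genes measured, Itga2b and Gp1bb being the brightest, none passed the test, and their mean was 6.25 to 6.35 in wild type and 6.18 to 6.33 in Nestin-Pex5-/- arrays. Cbr2 (1418509_at, chr11:120729485-120732025), a carbonyl reductase, read 5.77, 5.84, 5.80 and 6.06 in wild type and 5.88, 5.69, 6.21 and 6.11 in Nestin-Pex5-/- arrays. Replicates 9 and 10 were again above the wild type range, and the difference was 1.07-fold (log2 0.10, SE 0.12, interval -0.16 to 0.36, limma adjusted p = 0.706).

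**Figure D1:**
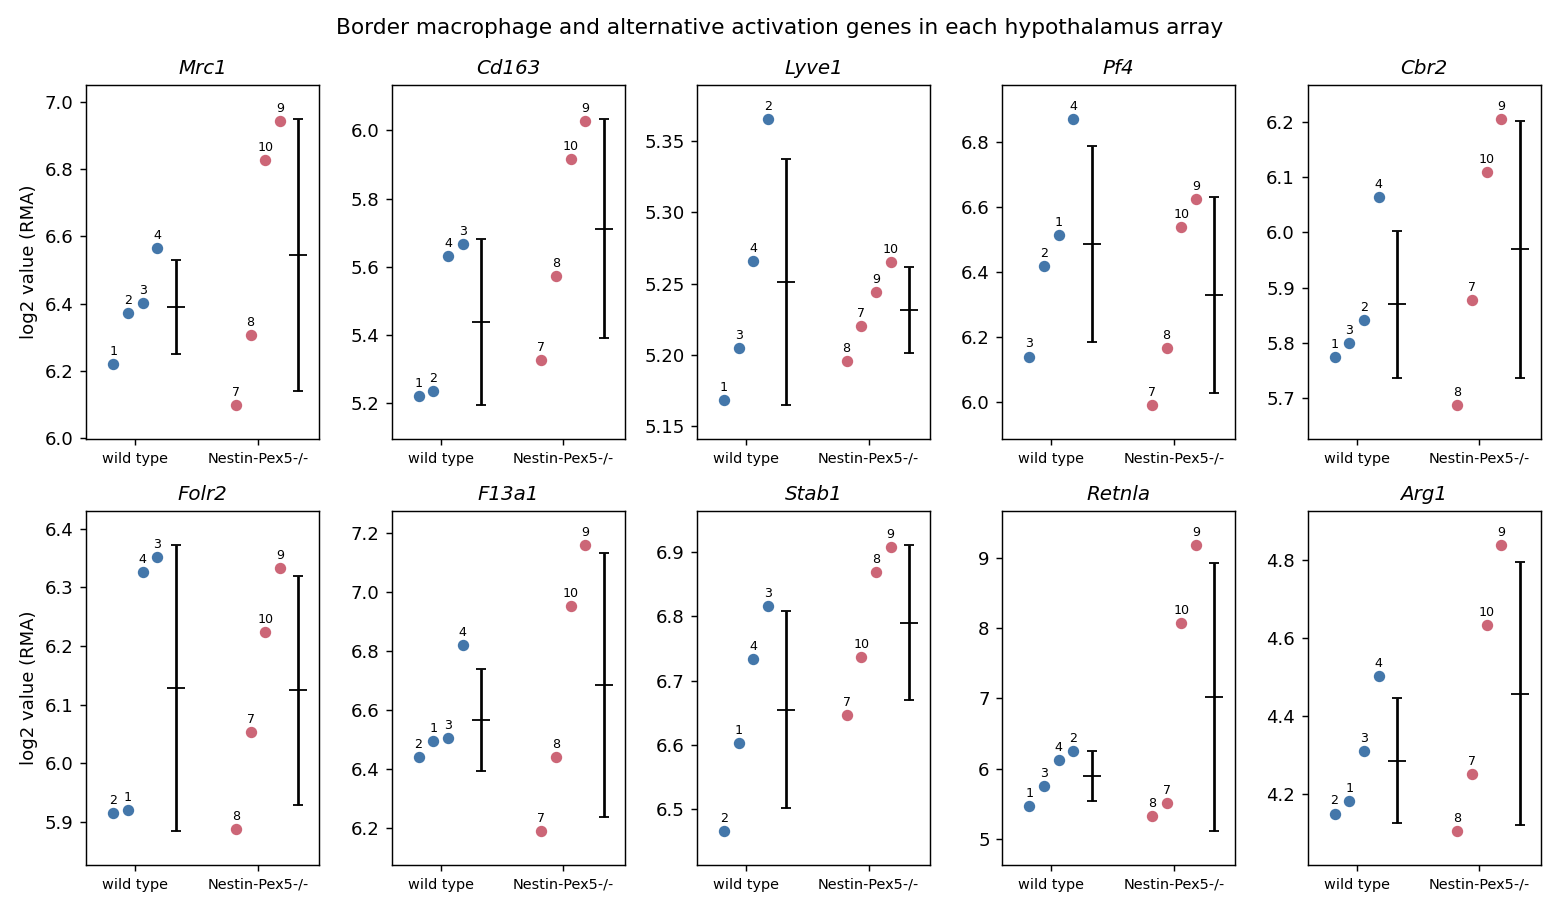
Log2 values (vertical axis, own scale in each panel) of the 10 genes in wild type (blue) and Nestin-Pex5-/- (red) hypothalamus. Each point is 1 array with its replicate number, and the bars are the mean ± SD of 4 arrays. Replicate 9 is the highest of all 8 arrays in 7 panels, and Retnla spans from 5.33 to 9.18 among the Nestin-Pex5-/- arrays.

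Retnla and Arg1 mark alternative activation. Retnla (1449015_at, chr16:48842609-48844461), a small secreted protein of the resistin family, read 5.47, 6.26, 5.76 and 6.12 in wild type and 5.52, 5.33, 9.18 and 8.07 in Nestin-Pex5-/- arrays. Replicates 9 and 10 lay far above all other arrays, replicate 7 lay within the wild type range and replicate 8 below it. The means were 5.90 ± 0.36 and 7.03 ± 1.90 (SD, n = 4 each), which is 2.18-fold (log2 1.12, SE 0.77, interval -0.61 to 2.86), and the difference was smaller than the spread among the Nestin-Pex5-/- mice (limma adjusted p = 0.511, exact permutation p = 0.4). That SD ranked 3 among all 18194 genes. Retnlb, its paralog, read 4.66 to 4.88 in wild type and 4.43 to 4.66 in Nestin-Pex5-/- arrays and did not have this pattern.

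Arg1 (1419549_at, chr10:24915207-24927470), the arginase that converts arginine to ornithine, read 4.18, 4.15, 4.31 and 4.50 in wild type and 4.25, 4.11, 4.84 and 4.63 in Nestin-Pex5-/- arrays. Replicates 9 and 10 were above all wild type arrays, as for Retnla, though by far less. The difference was 1.13-fold (log2 0.17, SE 0.16, interval -0.18 to 0.52, limma adjusted p = 0.624). Arg2, the mitochondrial arginase, had a ratio of 1.01 (adjusted p = 0.974 in the same limma fit). All 10 genes lay below the median of the 18194 main probe sets, which was 7.75, and no call of signal over background was available for them. The share of background in these values is therefore unknown, and background compresses differences.

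The Nestin-Pex5-/- arrays shared the top of their order across most of the 10 genes, which have different roles. Replicate 9 was followed by replicate 10 at the top in 8 of the 10 genes, the exceptions being Lyve1, by its brighter probe set, and Stab1. The share of all genes with this order at the top was not worked out. Below the top, replicate 8 exceeded replicate 7 in Mrc1, Cd163, Pf4 and F13a1, and replicate 7 exceeded replicate 8 in Cbr2, Folr2, Retnla and Arg1. Over all genes, the third principal component also set replicates 9 and 10 apart from replicates 7 and 8. In 7 of the 10 genes 2 Nestin-Pex5-/- arrays exceeded all wild type arrays, against 7.71% of all genes. Among the 8 border macrophage genes, Pearson's r over the 8 arrays had a median of 0.58 in the 28 pairs, ranged from -0.49 to 0.97 and was above 0 in 26, where the points share the arrays and their normalization. The mean of the 8 genes was 5.99, 6.01, 6.11 and 6.28 in wild type and 5.93, 6.02, 6.43 and 6.32 in Nestin-Pex5-/- arrays, so that the array with the highest mean and the array with the lowest were both Nestin-Pex5-/-.

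The genes outside the 10 with the most similar course over the 8 arrays were Zdhhc12, a palmitoyltransferase (Pearson's r with the mean of the 8 border macrophage genes 0.973), Igf1, a growth factor (0.971), Il13ra2, a decoy receptor for IL-13 (0.959), Clec10a, a macrophage lectin (0.958), and Gjb2, the gap junction protein connexin 26 (0.940). Igf1 read 8.23, 8.20, 8.23 and 8.61 in wild type and 7.98, 8.09, 8.81 and 8.76 in Nestin-Pex5-/- arrays. Il13ra2 read 5.46, 5.66, 5.78 and 6.25 in wild type and 5.13, 5.25, 6.47 and 6.16 in Nestin-Pex5-/- arrays. In both, replicates 7 and 8 were the lowest of all arrays and replicate 9 the highest. With each gene centred within its genotype, the closest were Il13ra2 (0.992), Zdhhc12 (0.988), 9030619P08Rik (0.984), 4930484H19Rik (0.981) and Lcn2 (0.978), the last being the only one of these with a genotype difference (4.66-fold higher, limma adjusted p = 0.00707).

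Among the Nestin-Pex5-/- arrays, genes of meningeal fibroblasts were higher in replicates 9 and 10 too. The mean of 14 such genes, collagens, decorin and transporters of the arachnoid barrier among them, was 8.08, 7.92, 7.72 and 8.43 in wild type and 6.86, 7.12, 8.26 and 8.21 in Nestin-Pex5-/- arrays. Nestin-Pex5-/- replicates 7 and 8 had the lowest values of all arrays, and replicates 9 and 10 lay within the wild type range. None of the 14 passed the genotype test, and their median log2 difference was -0.41. The brightest of them, Dcn (decorin), read 9.25 to 9.50 in wild type and 8.45, 8.87, 9.26 and 9.07 in Nestin-Pex5-/- arrays. The mean of 11 vascular endothelium genes was 8.05, 8.03, 7.90 and 8.22 in wild type and 7.94, 8.02, 8.04 and 8.07 in Nestin-Pex5-/- arrays, and none of them passed the test. Replicates 9 and 10 were again above replicates 7 and 8, but within a narrower range, and all 4 lay within the wild type range. The part of meninges retained at dissection in the values of the 10 genes was not tested. In whole tissue, fewer cells of a type and less RNA per cell cannot be told apart.

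With genotype in the limma fit, F13a1 rose with the meningeal mean by 0.59 per unit of log2 (SE 0.075, adjusted p = 0.0278), as 0.209% of all genes did (38). The slopes of Mrc1 (0.51, SE 0.086, adjusted p = 0.0839), Pf4 (0.50, SE 0.089, adjusted p = 0.101) and Retnla (2.19, SE 0.39, adjusted p = 0.101) did not pass the test, and those of Lyve1 and Stab1 were 0.031 and 0.061. For each gene the fit gives both genotypes a common slope, and slopes within a genotype were not tested. Nestin-Pex5-/- replicates 7 and 8 (6.86 and 7.12) lay below every wild type meningeal mean (7.72 to 8.43), so the fit extrapolates there. Under these limits, 2 of the 10 genes were higher in Nestin-Pex5-/- mice, where 4.76% of all genes were higher and 1.3% lower. Retnla was 4.17-fold higher (log2 2.06, SE 0.41, limma adjusted p = 0.0215) and F13a1 1.29-fold higher (log2 0.37, SE 0.079, adjusted p = 0.0275). Mrc1 (1.29-fold, adjusted p = 0.0506), Cd163 (1.35-fold, adjusted p = 0.116) and Arg1 (1.27-fold, adjusted p = 0.0857) were not called, and none of the 10 was lower.

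These calls depended on single arrays. Retnla lost its call without wild type replicate 1 (adjusted p = 0.0582), without Nestin-Pex5-/- replicate 9 (0.126) and without replicate 10 (0.0726). F13a1 lost its call without wild type replicate 1 (adjusted p = 0.0715), wild type replicate 2 (0.0870), Nestin-Pex5-/- replicate 8 (0.0655), replicate 9 (0.213) or replicate 10 (0.0693). Without wild type replicate 3, Mrc1 (adjusted p = 0.0241) and Cd163 (0.0105) were called as well. With 1 array left out, limma thus called from 0 to 4 of the 10 genes higher in the covariate fit.

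**Figure D2:**
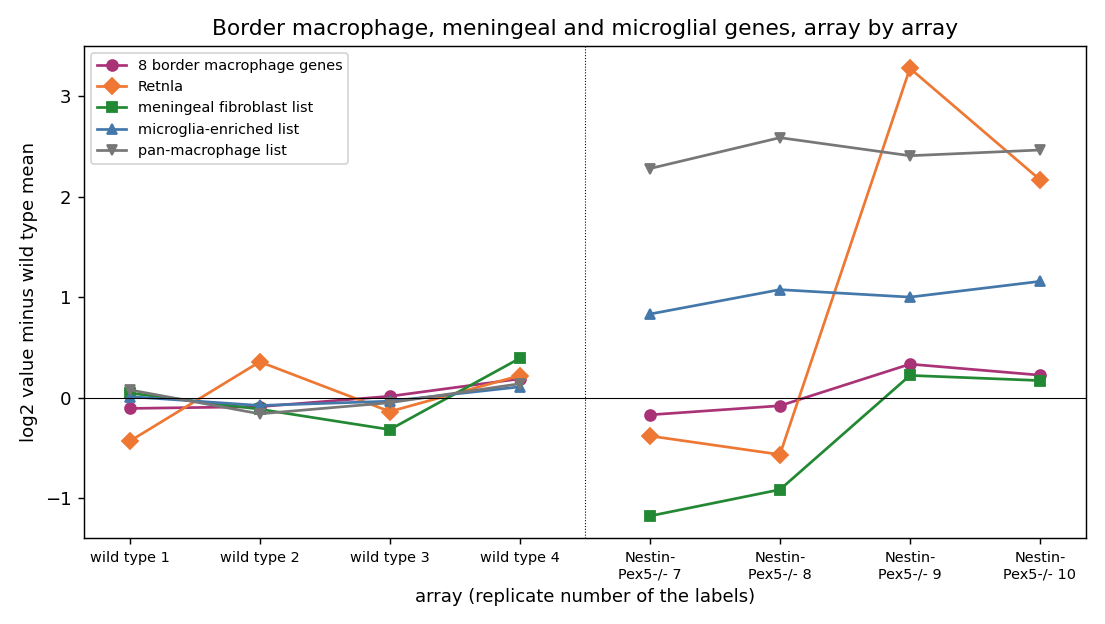
Mean log2 value minus the wild type mean (vertical axis) in each array (horizontal axis) for the 8 border macrophage genes, Retnla and the lists of meningeal fibroblast, microglia-enriched and pan-macrophage genes. The microglia-enriched and pan-macrophage lists are raised in all 4 Nestin-Pex5-/- arrays. The mean of the border macrophage genes and Retnla are raised in replicates 9 and 10, and the meningeal genes are lowered in replicates 7 and 8. For the border macrophage mean, wild type replicate 4 lies close below Nestin-Pex5-/- replicate 10.

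**Figure D3:**
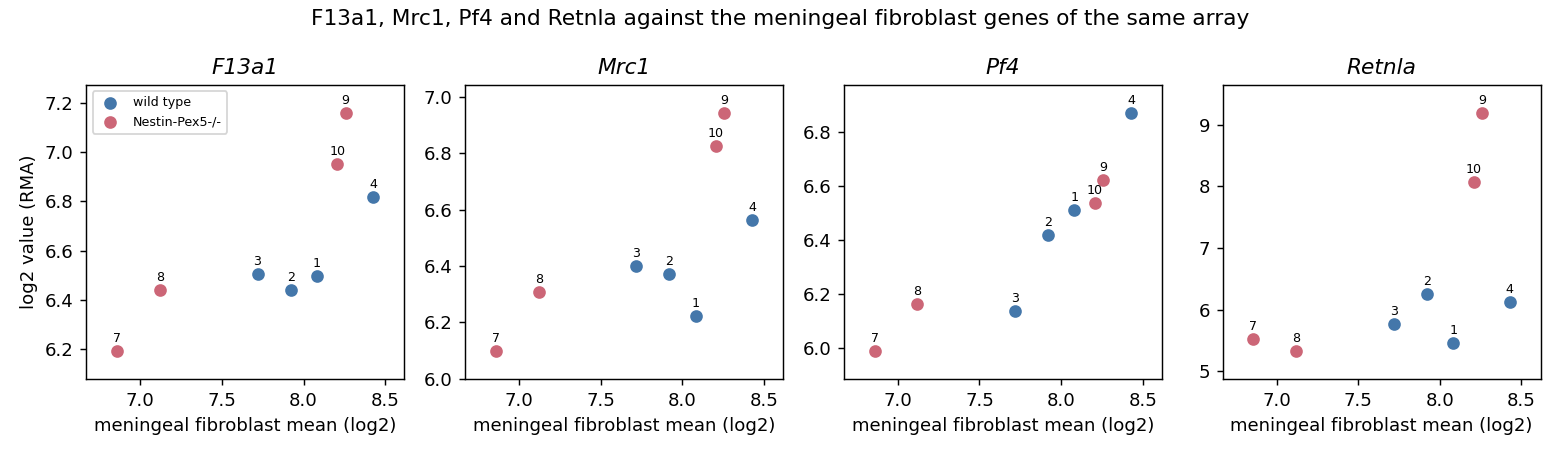
Log2 values of F13a1, Mrc1, Pf4 and Retnla (vertical axes) against the mean log2 value of 14 meningeal fibroblast genes (horizontal axes), with 1 point for each array and its replicate number. Nestin-Pex5-/- replicates 9 and 10 lie above wild type arrays of similar meningeal mean for F13a1, Mrc1 and Retnla, and for Pf4 they lie beside them.

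The comparison with microglia was made within each array. The mean of the 10 microglia-enriched genes measured was 7.49 to 7.68 in wild type and 8.40 to 8.73 in Nestin-Pex5-/- arrays, with no overlap. The strongest rises were those of Trem2, a lipid receptor (4.48-fold), Olfml3, a secreted matrix protein (3.34-fold), Fcrls, an Fc receptor-like protein (3.02-fold), and Gpr34, a lysophosphatidylserine receptor (2.51-fold). Those not called, named after their values were seen, were P2ry12 (1.37-fold, limma adjusted p = 0.0554) and Slc2a5 (0.777-fold, adjusted p = 0.134). Slc2a5 went the other way, with every Nestin-Pex5-/- array below every wild type array. After the mean of the microglia-enriched genes was subtracted from every array, 9 of the 10 genes were lower in Nestin-Pex5-/- mice, all but Retnla. In these 9 every Nestin-Pex5-/- array lay below every wild type array. The share of all genes without overlap on this scale was not worked out. Since the subtracted mean itself did not overlap between the genotypes, its subtraction alone separates the arrays of a gene with level values. On this scale 98% of all genes were lower as well, so a count of 9 in 10 is not particular to border macrophage genes. Pf4 had the largest relative difference (-1.17 on the log2 scale, SE 0.14, ratio 0.444, limma adjusted p = 7.2e-08) and Cd163 the smallest among the 9 (-0.74, SE 0.14, ratio 0.597, adjusted p = 2.6e-05). For each of the 9 the exact permutation test gave p = 0.029, the smallest p it can give, which follows from the lack of overlap. Retnla differed by 0.11 (SE 0.53, limma adjusted p = 0.841). Its replicates 7 and 8 read -2.89 and -3.31 relative to the microglial mean and replicates 9 and 10 read 0.61 and -0.66, with -2.11 to -1.24 in wild type. The call for Retnla on this scale changed with the setting, to higher with array weights or the meningeal covariate and to lower with the pan-macrophage genes as the reference. A ratio within an array shows unequal change and does not say that a gene kept its level.

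**Figure D4:**
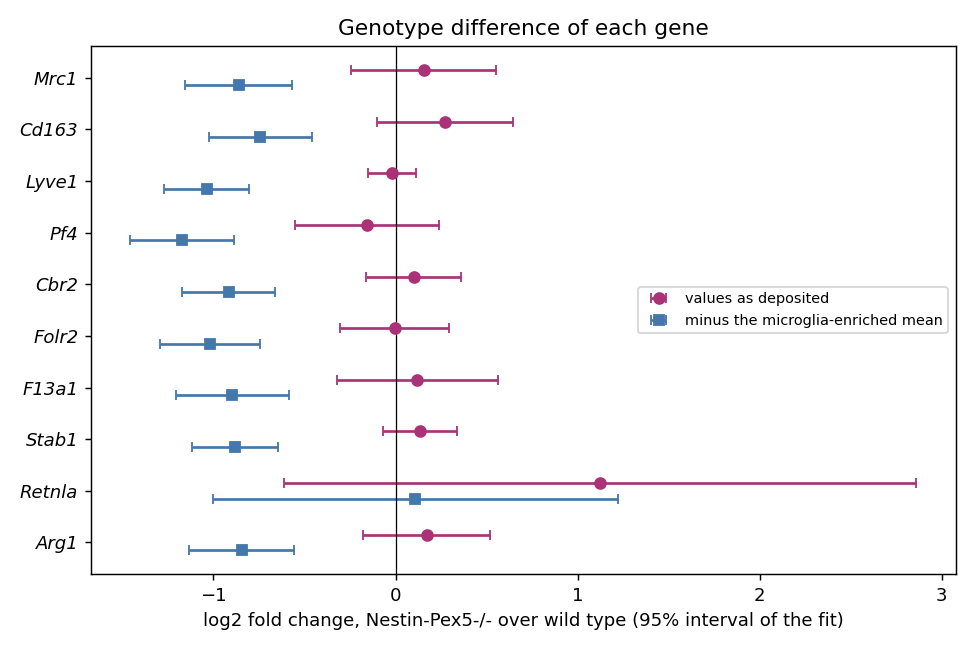
Log2 difference between the genotypes, Nestin-Pex5-/- minus wild type (horizontal axis, bars are the 95% interval of the limma fit) for each of the 10 genes, as deposited (circles) and after the mean of the microglia-enriched genes was subtracted from each array (squares). All intervals of the deposited values include 0, and relative to the microglial mean the intervals of all genes but Retnla lie below 0.

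Further genes reported for border macrophages were divided. Of 26 measured, 6 were higher and none lower, with a median log2 difference of 0.12. The 4 with the largest change were Lyz2, lysozyme (5.37-fold, limma adjusted p = 5.8e-06), Ms4a7, a membrane protein of the MS4A family (3.10-fold, adjusted p = 0.00905), Hpgd, which inactivates prostaglandins (2.64-fold, adjusted p = 0.00371), and P2rx7, an ATP-gated channel (1.75-fold, adjusted p = 0.000738). The others were Tgfbi (1.53-fold) and Apoe (1.38-fold), named after their values were seen. Lyz2, P2rx7 and Apoe are made by microglia too, Apoe also by astrocytes. Ms4a7 read 5.84, 5.72, 5.66 and 6.21 in wild type and 8.26, 7.83, 6.96 and 6.92 in Nestin-Pex5-/- arrays. Among the Nestin-Pex5-/- arrays, replicates 7 and 8 were thus the highest for Ms4a7, where replicates 9 and 10 were the highest for Mrc1, F13a1 and Retnla. The lectins Clec10a (1.20-fold, adjusted p = 0.572), Cd209f (1.03-fold) and Siglec1 (1.01-fold), likewise chosen for what they read, were not called. Larger differences among the uncalled genes were those of Maf (1.61-fold, limma adjusted p = 0.0509), Ccl8 (1.57-fold, 0.118) and Ccr1 (1.52-fold, 0.140). The lowest ratio of the list was that of Igfbp4 (0.890-fold, adjusted p = 0.761). These, too, were named after their values were seen.

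Of 21 further genes of alternative activation, 3 were higher and none lower, with a median log2 difference of 0.021. These were Tgfb1, the cytokine TGF-beta 1 (2.54-fold, limma adjusted p = 4.7e-05), Hmox1, haem oxygenase 1 (2.37-fold, adjusted p = 0.0011), and Cd200r1, an inhibitory receptor (1.24-fold, adjusted p = 0.0239). Chil3 (Ym1), a classical marker beside Retnla and Arg1, read 3.92 to 4.17 in wild type and 3.83 to 4.17 in Nestin-Pex5-/- arrays, and the ratio was 0.986. Chil3, chosen after its values were seen, did not have the spread of Retnla. Tgfb1 read 7.52, 7.89, 7.68 and 7.68 in Nestin-Pex5-/- replicates 7 to 10 and Hmox1 7.11, 7.40, 7.48 and 7.60, so both were raised in all 4 mice.

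Among ligands, receptors and transducers of alternative activation and macrophage survival, 9 of 14 were higher and none lower. Csf1r, the survival receptor of microglia and border macrophages alike, was 2.66-fold higher (limma adjusted p = 6.9e-06), and the TGF-beta receptors Tgfbr1 and Tgfbr2 were 2.45-fold and 1.91-fold higher. Il10ra, the IL-10 receptor, was 1.86-fold higher. On the IL-4 axis, Stat6 was 1.52-fold higher (adjusted p = 0.00776), whereas the ligands Il4 (0.927-fold, adjusted p = 0.663) and Il13 (1.01-fold, adjusted p = 0.970) and the receptor Il4ra (1.06-fold, adjusted p = 0.698) did not pass the test. Il4 read 3.95 to 4.51 in wild type and 4.02 to 4.25 in Nestin-Pex5-/- arrays. Of the other ligands of the list, Il33 was called higher (1.48-fold, limma adjusted p = 0.0398) and Il34 was not called (0.869-fold, adjusted p = 0.330). The receptor gene Il13ra1 was not called either (1.21-fold, adjusted p = 0.0870). Stat6, the IL-4 axis genes beside it, Il33, Il34 and Il13ra1 were named after their values were seen. Of 15 genes of classical activation, 6 were higher and none lower, led by Cxcl10, a T cell chemokine (6.39-fold), Il12b, the p40 chain of IL-12 and IL-23 (5.25-fold), Cd86, a costimulatory protein (2.61-fold), and Il1b, interleukin-1 beta (2.60-fold). Their median log2 difference was 0.21.

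**Figure D5:**
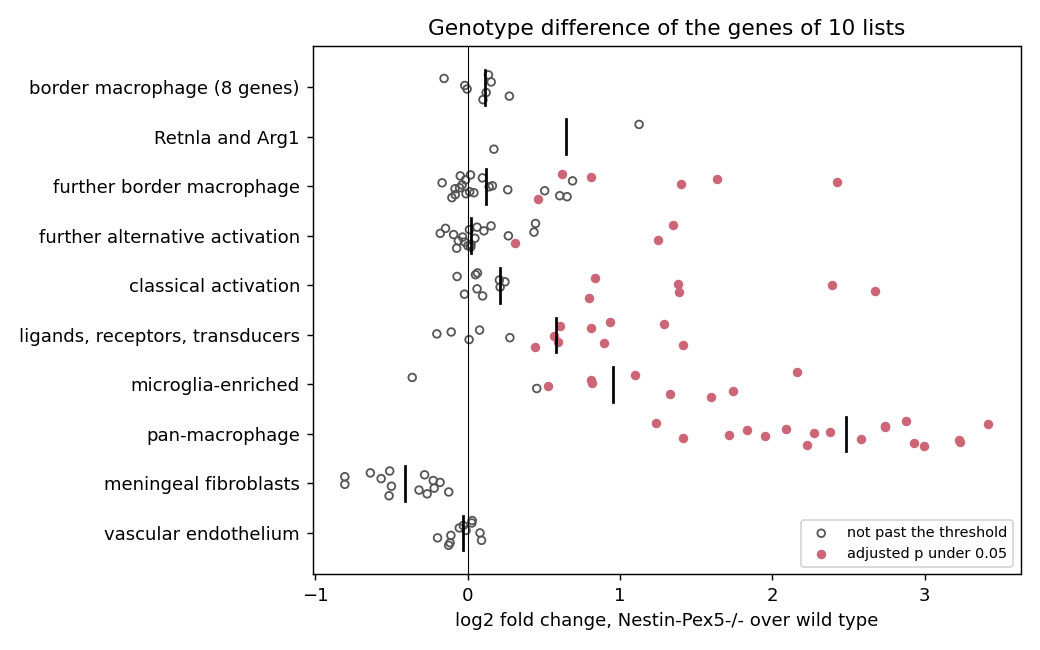
Log2 difference between the genotypes, Nestin-Pex5-/- minus wild type (horizontal axis), for each gene of 10 lists, where a filled point passed the limma test at an adjusted p under 0.05, an open point did not and the vertical bar is the median of the list. No point of the border macrophage genes or of Retnla and Arg1 is filled, whereas all 18 pan-macrophage points are.

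Markers of other cells that could carry these transcripts were read in the same arrays. Of 7 monocyte and neutrophil genes only Lcn2, lipocalin 2, which reactive astrocytes make too, was higher. Ccr2, the receptor of inflammatory monocytes, read 7.19 to 7.47 in wild type and 7.02 to 7.22 in Nestin-Pex5-/- arrays. Ccr2 was named after its values were seen, and these are from the brightest of its 4 probe sets. Of 6 dendritic cell genes only Itgax was higher (6.18-fold, limma adjusted p = 2.6e-06), and Itgax is also raised in activated microglia. Of 5 mast cell genes only Mcpt4, a chymase, was called higher (1.43-fold, limma adjusted p = 0.0488). Cpa3 (1.67-fold, adjusted p = 0.199) and Cma1 (1.55-fold, 0.0756) differed more and were not called. Tpsb2 (1.31-fold) and Kit (1.03-fold) were not called either, and these genes were named after their values were seen. The mean of the 5 was highest in Nestin-Pex5-/- replicate 9 (6.72, against 5.60 to 5.89 in wild type and 5.89 to 6.19 in the other Nestin-Pex5-/- arrays). None of 9 T and B cell genes, 10 genes of mural cells, 9 genes of choroid plexus and ependyma or 3 genes of red blood cells passed the test. None of 9 measured paralogs of the 10 genes passed it either, and Mrc2, another mannose receptor of the family of Mrc1, had a log2 difference of 0.43 (adjusted p = 0.216). The part of these cells in the values of the 10 genes was not tested.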

How the data were processed

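Hypothalamus RNA of 4 wild type and 4 Nestin-Pex5-/- mice was read on 1 array each. The authors made the deposited log2 values with RMA. The version of RMA, how probe sets were defined and whether any were filtered are not given in the sources used here. The labels state biological replicates. Of 45101 probe sets, 34958 are annotated to 1 gene, 932 to several and 9211 to none, and 34754 symbols were updated by gene identifier to RefSeq's GRCm38.p6 annotation. The brightest probe set over the 8 arrays stood for a gene, and no filter on level was used. No column was left unmapped.

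The genotype test was limma's (lmFit and eBayes, two-sided, limma 3.58.1 under R 4.3.3), with Benjamini-Hochberg adjustment over 18194 genes and a threshold of 0.05. Single genes had an exact permutation test over the 70 assignments of arrays. The same fit was run after subtracting the microglia-enriched mean, and with the meningeal fibroblast mean as a covariate. The scripts were tested on simulated data. Motifs were searched in Python 3.11.15, and figures were drawn with matplotlib 3.10.9. Precision is limited by having 4 arrays a genotype.

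The 10 genes and all lists were chosen with earlier results of these data known. Beside the 10 genes, the rule for naming takes up to 4 called genes of a list with the largest change, or its 2 brightest where none was called, paralogs, and the 5 genes most like the 8 border macrophage genes among those with an SD above the median. Alternatives varied the level filter, the choice and kind of probe set, scaling, normalization, variance model, array weights, test, threshold, arrays, covariate and microglial reference. The leave-one-out fits with the covariate were added after the data were seen.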

Additional observations from a re-analysis of the deposited data

Results flagged for a closer look

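Of the 20 groups formed by the 10 genes and the genotypes, 1 held an array farther from the others than Dixon's 95% limit for 4 arrays allows. In wild type, F13a1 read 6.82 in replicate 4, against 6.44 to 6.50 in replicates 1 to 3. Chance gives such a result in about 1 of 20 groups. The same array had the highest meningeal fibroblast mean of all 8 arrays (8.43) and the lowest mean of choroid plexus and ependyma genes (6.66), and the part of either in the F13a1 value was not tested. Without wild type replicate 4, F13a1 still did not pass the genotype test in limma. The spread of Retnla among the Nestin-Pex5-/- arrays did not pass the Dixon limit, since replicates 9 and 10 are both high.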

How the results depend on the processing

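The count of 0 called among the 10 genes was the same under every alternative that tested them but the meningeal covariate, which gave 2 higher. With genes below the median level left out, none of the 10 was tested. Among all genes the count of higher genes, 724, became 416 without genes below the median level, 1351 with array weights and 467 at a threshold of 0.01. The count of lower genes, 144, became 1088 with arrays scaled to Actb, 699 with array weights, 72 with Student's test, 20 at the threshold of 0.01 and 237 with the meningeal covariate. Leaving out 1 array gave 543 to 1080 higher and 46 to 331 lower genes, the highest count of lower genes being that without wild type replicate 4. The median of all genes was -0.033 as deposited, -0.16 after scaling to Actb and -0.011 after scaling to the 8 reference genes measured. The cause of these changes was not tested.

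Log2 differences near 0 changed sign and stayed uncalled. Lyve1 became 0.034 with its probe sets averaged, 0.0029 with reference genes and 0.0096 when normalized again. Scaled to Actb, Cbr2 became -0.028 and F13a1 -0.0067. Folr2 became 0.018 with reference genes, 0.17 with array weights and 0.085 with the covariate, and Pf4 became 0.030 with array weights and 0.057 with the covariate. With 1 array left out the ranges were -0.047 to 0.018 for Lyve1, -0.076 to 0.075 for Folr2 and -0.037 (without Nestin-Pex5-/- replicate 9) to 0.29 for F13a1. In the covariate fit they were -0.033 to 0.038 for Lyve1 and -0.030 to 0.12 for Pf4.

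Relative to microglia, 9 genes were lower with each array left out, 7 without _a_at, _s_at and _x_at probe sets, which leaves out Folr2 and Stab1, and 10 with pan-macrophage genes as the reference. In the main fit 98% of all genes were lower on this scale, so these counts are not particular to the 10 genes. The shares of all genes under these alternatives were not worked out. Retnla, not called on that scale (0.11, limma adjusted p = 0.841), was called lower with the pan-macrophage reference (-1.31, adjusted p = 0.0215) and higher with array weights (0.95, adjusted p = 0.0488) and with the covariate (0.99, adjusted p = 0.0116), and it ranged from -0.61 to 0.69 with 1 array left out, the lowest being without Nestin-Pex5-/- replicate 9. No paired analysis was possible because the genotypes share no replicate numbers in the labels. All 10 genes are dim, so background limits the differences that could be seen.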
